A study of Labrus bergylta with 25 samples.

Results

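A set of 100 genes had its highest mean levels in wrasse foreguts that held either a protein or a lipid bolus, and its lowest in foreguts that held cellulose or nothing. The set was chosen by the measured values themselves. For each gene the 4 treatment means were put in order, and 1564 of 19033 genes tested had their largest step between the pair protein and lipid above and the pair cellulose and empty below. The step, called the gap here, was divided by the SD (standard deviation) within the groups, and the 100 genes with the highest ratio are described. The gap in each of them was therefore selected on these libraries and is given as a description, with no test. The reverse pattern, with cellulose and empty above protein and lipid, was found in 1405 of the 19033 genes tested.

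The ballan wrasse (Labrus bergylta) is a marine fish without a stomach, and the bulbous, the widened front of its gut, is where food first arrives. RNA was read from whole pieces of this region, taken from female juveniles, in 6 intestines with a protein bolus, 6 with a lipid bolus, 7 with a cellulose bolus and 6 left empty. Every intestine was removed from a fasted fish, flushed, mounted in oxygenated Ringer's solution and kept for 1 h. Protein was casein cut by trypsin with a protease and phosphatase inhibitor added, lipid was cod liver oil cut by a bacterial lipase with the detergent Tween added, and cellulose was a powder in water with a blue dye. The bolus mixtures thus differed in their additives as well as in the nutrient, and these cannot be told apart. An empty intestine lacked both nutrient and the stretch made by a bolus.

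In the vertebrate gut, digested protein and fat are taken up by enterocytes through transporters and are also sensed by scattered enteroendocrine cells, which release peptide hormones that act on nerves and muscle. Amino acids, small peptides and free fatty acids are read by receptors on these cells. Stretch of the wall is sensed by enteric neurons and smooth muscle and needs no nutrient.

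The table gives wrasse gene identifiers and does not pair them with gene names. Genes are therefore named below by their rank in the ratio of gap to SD, and the markers of gut tissue were not checked. Values are normalized counts, in which the reads of each library were scaled by its size factor. The depth was 12233522 to 31586869 reads in protein libraries, 11803381 to 15686525 in 5 lipid libraries, 10160088 to 19732023 in cellulose libraries and 11079610 to 16428546 in 5 empty libraries. It is not given for lipid library 21 and empty library 19. Their size factors lay closer to 1 than the limit set for recovering reads. Genes listed at 0 numbered 89 to 308 in protein, 113 to 355 in lipid, 91 to 659 in cellulose and 91 to 1003 in empty libraries. In pieces of whole gut wall, fewer cells of a type and less RNA per cell cannot be told apart.

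The gene of rank 1, LABE_00005599-RA, was also by far the most abundant of the 100. It was the 15th most abundant of all genes tested, with 16739 to 215240 reads per library. Its lowest, median and highest values were 42816, 66039 and 99738 normalized counts in protein libraries and 51951, 64678 and 86064 in lipid libraries. They were 23315, 40472 and 47306 in cellulose libraries and 24548, 34616 and 44862 in empty libraries. Of the 12 nutrient libraries, 11 lay above all 13 cellulose and empty libraries. The exception was protein library 20, at 42816, which lay below cellulose libraries 16 and 23 and empty library 30. The means were 68955 ± 22991 (SD, n = 6) with protein and 67709 ± 15145 (n = 6) with lipid, against 36220 ± 9459 (n = 7) with cellulose and 33825 ± 7124 (n = 6) in empty intestines. The gap was 0.91 on the log2 scale, 1.87-fold, against a within-group SD of 0.39.

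The gene of rank 2, LABE_00019722-RA, was a gene of moderate level with the cleanest separation of libraries. Its lowest, median and highest values were 403.9, 432.2 and 590.8 normalized counts in protein libraries and 368.5, 451.8 and 624.7 in lipid libraries. They were 279.6, 315.9 and 360.5 in cellulose libraries and 169.5, 315.7 and 355.2 in empty libraries. All 12 nutrient libraries lay above all 13 others, and no other gene tested had such a separation (0.00525% of genes tested). The margin was narrow, since the lowest nutrient value was 368.5 and the highest of the others 360.5. The means were 459 ± 67.8 with protein and 461 ± 94.4 with lipid (SD, n = 6 each), against 316 ± 27.2 with cellulose (n = 7) and 298 ± 67.5 in empty intestines (n = 6). The gap was 0.53, 1.44-fold, smaller than that of rank 1 but with an SD of 0.26.

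**Figure D1:**
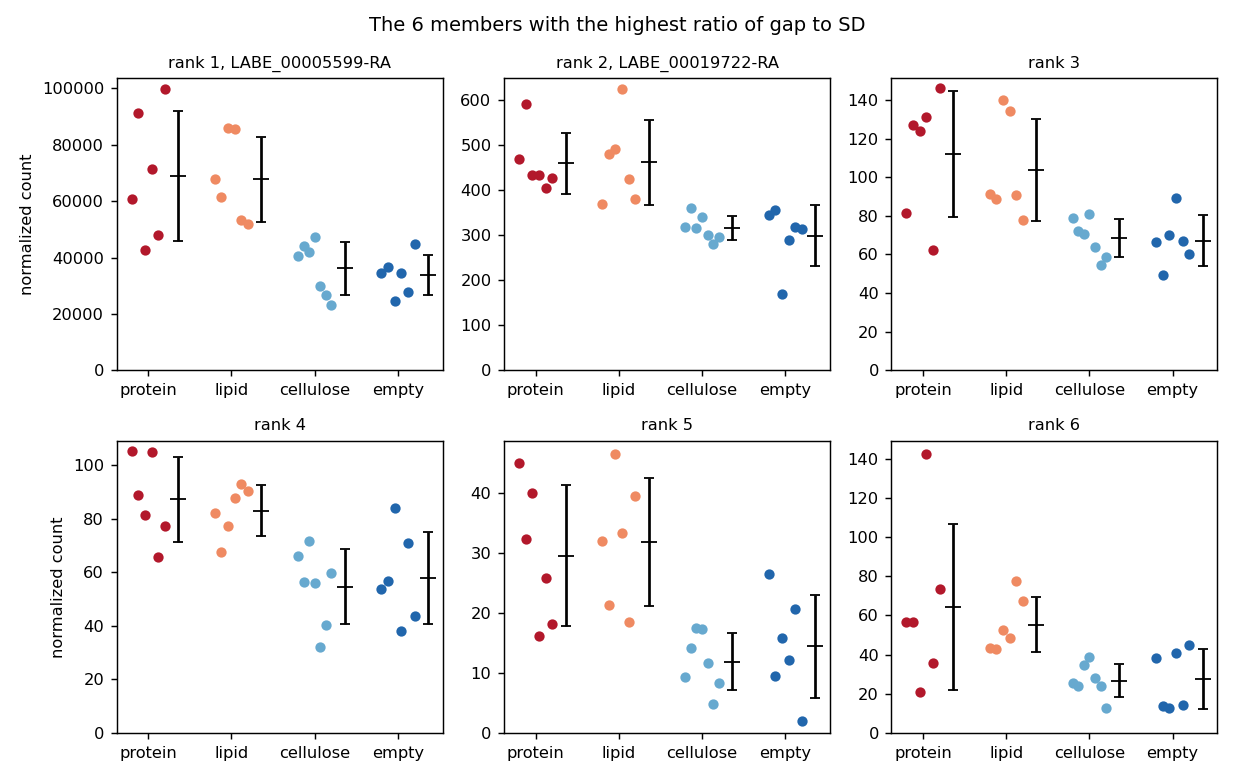
Normalized counts (linear axis from 0) of the 6 genes with the highest ratio of gap to SD, 1 point per library, with bars for the mean and SD of each treatment. The gene of rank 2 has all 12 protein and lipid points above the 13 cellulose and empty points, and the gene of rank 1 has 11 of 12.

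After these, the nutrient libraries and the others overlapped in every gene. The gene of rank 5 had lowest, median and highest values of 16.2, 28.99 and 45.05 with protein and 18.4, 32.61 and 46.39 with lipid, against 4.76, 11.73 and 17.43 with cellulose and 1.944, 13.99 and 26.48 in empty intestines. Here 7 nutrient libraries lay above all others, and the gap was 2.27-fold. The gene of rank 6 had 20.71, 56.6 and 142.4 with protein and 42.61, 50.39 and 77.29 with lipid, against 12.54, 25.48 and 38.62 with cellulose and 12.88, 26.21 and 44.72 in empty intestines. The protein group was the widest in this gene. The gene of rank 8 had 118.1, 202.4 and 438.2 with protein and 110.4, 215.1 and 402.0 with lipid, against 52.36, 127.8 and 163.2 with cellulose and 51.56, 95.17 and 190.2 in empty intestines. Ranks 5, 6 and 8 were the genes among the first 10 whose gap exceeded 1 on the log2 scale.

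The genes of ranks 3, 4, 9 and 10 were of low to moderate level with smaller gaps. Rank 3 averaged 112 ± 32.7 with protein and 104 ± 26.4 with lipid, against 68.5 ± 9.94 with cellulose and 67.2 ± 13.3 in empty intestines. Rank 4 averaged 87.3 ± 15.7 and 83.1 ± 9.56 with protein and lipid, against 54.7 ± 13.9 and 58.0 ± 17.1 with cellulose and in empty intestines. In rank 3, 8 nutrient libraries lay above all others, and in rank 4, 6 did. Rank 9 averaged 45.6 ± 23.2 with protein and 37.3 ± 8.11 with lipid, against 20.8 ± 7.40 with cellulose and 19.4 ± 9.03 in empty intestines. Rank 10 averaged 54.6 ± 12 with protein and 59.4 ± 17 with lipid, against 36.8 ± 7.31 with cellulose and 38.2 ± 13.2 in empty intestines. Rank 7 was an abundant gene, at 2896 ± 876 with protein and 2704 ± 484 with lipid, against 1933 ± 358 with cellulose and 1714 ± 413 in empty intestines (SD, n = 6, 6, 7 and 6 for each of these genes).

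Across the 100 genes the gap ran from 0.16 to 2.10 with a median of 0.53 (1.45-fold), and 46 had a gap under 0.5. Only 16 had a gap of at least 1. The median of the largest gap over all genes tested, wherever it lay, was 0.20. The within-group SD had the same median of 0.40 in the 100 genes and in all genes tested. The ratio had a median of 1.15 and a highest value of 2.34 in the 100 genes, which were chosen for it. Over all genes tested, wherever the largest gap lay, its median was 0.49, its 95th percentile 1.03 and its highest value 2.46. In the 100 genes the ratio exceeded 1.5 in 6 and lay under 1.1 in 42, and it thinned out without a break at the end of the set. Ranks 98 to 100 had ratios of 1.018, 1.017 and 1.015, and the next genes, which were left out, had 1.013, 1.010 and 1.008.

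**Figure D2:**
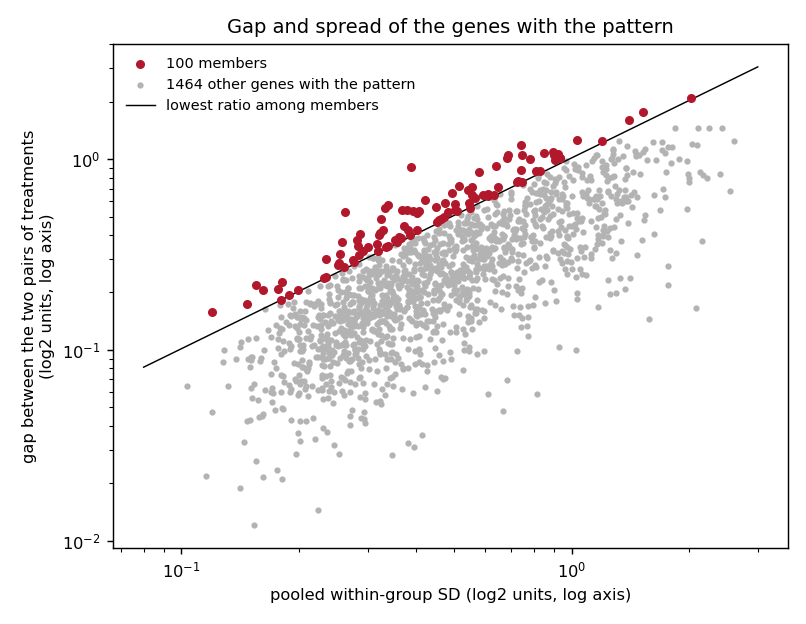
Gap between the pair protein and lipid and the pair cellulose and empty against the pooled within-group SD, both in log2 units on log axes, for the 1564 genes with the pattern. The 100 genes described (red) lie on or above the line of ratio 1.015 and the 1464 others (grey) below it, so both small gaps with little spread and large gaps with much spread were taken.

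Small gaps came with high levels and large gaps with low levels. The 33 genes of lowest mean level, 6.52 to 54.7 normalized counts, had a median gap of 0.76. The 33 of middle level, 62.1 to 297, had a median of 0.43, and the 34 of highest level, 317 to 51059, had 0.36. The SD fell in the same order, with medians of 0.63, 0.35 and 0.30. A gene with a larger SD needed a larger gap to enter the set, so the order of the gaps was largely set by the choice. The smallest gap, 0.16 with an SD of 0.12, belonged to rank 22, whose lowest, median and highest values were 336.9, 364.3 and 415.0 with protein and 342.3, 359.7 and 421.8 with lipid, against 310.6, 326.9 and 352.4 with cellulose and 252.7, 331.4 and 355.8 in empty intestines.

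Abundant genes were few but present. A mean of at least 1000 was found in 12 of the 100 genes, against 13.6% of all genes tested, and a mean of at least 10000 in 3, against 0.867%. Besides rank 1 these were rank 54, with a mean of 15515 and a gap of 0.29, and rank 57, with a mean of 12247 and a gap of 0.32. The share of all normalized counts taken by the 100 genes was 1.16 ± 0.210% with protein and 1.16 ± 0.191% with lipid, against 0.732 ± 0.124% with cellulose and 0.749 ± 0.0940% in empty intestines. Rank 1 carried a large piece of this difference, and without it the shares were 0.681%, 0.674%, 0.478% and 0.510% in the same order.

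The 3 gaps of at least 1.5 belonged to genes near the floor of the assay, while gaps reached 1.05 among the 34 genes of highest level. Rank 85 had the largest, 2.10, with an SD of 2.02 and 6 libraries at 0. Its lowest, median and highest values were 2.875, 13.66 and 292.7 with protein and 4.477, 16.17 and 152.4 with lipid, against 0, 0 and 17.85 with cellulose and 0, 6.525 and 16.53 in empty intestines. The 2 high values were single libraries, protein 20 and lipid 21. Rank 47, with a gap of 1.77 and 4 libraries at 0, had 3.551, 32 and 152.5 with protein and 7.137, 18.17 and 36.4 with lipid, against 0, 4.358 and 26.64 with cellulose and 0, 1.783 and 11.19 in empty intestines. Its zeros lay in cellulose libraries 16 and 27 and empty libraries 19 and 30. Cellulose library 27 and empty libraries 19 and 30 had the most genes at 0 of all libraries, with 659, 803 and 1003. Of these, empty library 19 was also at 0 in rank 85, and the others were not. In all, 5 of the 100 genes had a library at 0 and 77 were above 10 in every library. Genes entered the test with values above 10 in at least 5 libraries, and 7 of the 100 reached this only with the help of nutrient libraries. One of them, rank 48, was above 10 in no cellulose or empty library, with 3.244, 19.88 and 36.13 with protein and 10.09, 12.83 and 22.6 with lipid, against 2.786, 7.989 and 9.266 with cellulose and 0, 3.829 and 8.825 in empty intestines.

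The difference between the protein and the lipid bolus in these genes was measured with limma, a linear model fitted over all genes tested. The choice of genes took these same means and kept only genes in which this difference was smaller than the gap, so that few or no calls were nearly fixed in advance and nothing is read from their number. With limma 0 of the 100 genes had p under 0.01 (0.447% of all genes tested) and 0 had p under 0.05 (2.47%). On the 23 libraries that entered the count tests, edgeR gave 0 genes at 0.01 (0.652%) and 2 at 0.05 (3.61%), and DESeq2 gave 0 (0.967%) and 4 (4.05%). The protein mean was the higher in 65 genes and the lipid mean in 35, and the size of the difference had a median of 0.085. As a share of each gene's own gap, the difference had a median of 16.2%. The 95% interval of the difference reached a median of 0.50 to either side, about the size of the median gap. The choice had already left out genes whose difference reached their gap, so the interval cannot show which differences were detectable.

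For LABE_00005599-RA the protein minus lipid difference was -0.01 (95% interval -0.46 to 0.44), and for LABE_00019722-RA it was 0.01 (-0.31 to 0.32). Rank 45 averaged 33.4 ± 6.83 with protein and 22.1 ± 3.80 with lipid (SD, n = 6 each), a difference of 0.57 (-0.12 to 1.26). The largest difference was in rank 47, at 0.74 (-0.97 to 2.46), where the protein group held the single value of 152.5.

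Cellulose and empty intestines, a bolus without nutrient and no bolus, were set against each other in the same way, and here too the choice kept only genes whose difference was smaller than the gap. The counts are again given with nothing read from them. With limma 0 of the 100 genes had p under 0.01 (0.919% of all genes tested) and 0 had p under 0.05 (5.18%). The edgeR test gave 0 at 0.01 (0.883%) and 0 at 0.05 (5.14%), and DESeq2 gave 0 (1.38%) and 0 (5.65%). Cellulose was the higher in 53 genes and empty in 47, and the difference had a median size of 0.081. The difference was 0.08 (-0.35 to 0.51) for LABE_00005599-RA and 0.12 (-0.18 to 0.42) for LABE_00019722-RA. Rank 48 had 6.44 ± 2.66 with cellulose (n = 7) and 3.89 ± 3.10 in empty intestines (n = 6), a difference of 0.83 (-0.23 to 1.89).

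The nutrient comparisons themselves were used by the choice of genes, so their counts are descriptions and nothing is read from them. With limma at p under 0.01, 39 of the 100 genes were higher with protein than with cellulose (1.32% of all genes tested) and 40 higher with protein than in empty intestines (1.27%). For lipid the counts were 26 against cellulose (0.499%) and 25 against empty (0.504%). On 23 libraries, without lipid library 21 and empty library 19, the lipid counts in this order were 13 and 13 with edgeR. They were 13 and 19 with DESeq2 and 9 and 14 with limma. The protein counts on 23 libraries were 55 and 39 with edgeR, 61 and 44 with DESeq2 and 46 and 31 with limma. Shares of all genes called higher were not counted for these. The median log2 difference was 0.62 and 0.63 for protein and 0.58 and 0.64 for lipid. The lipid count against cellulose was 8 without lipid library 21 (0.269% of all genes then tested), the lowest with 1 library left out. It was 15 without lipid library 18 or cellulose library 25, 27 or 31, where shares were not counted. None of the 100 had an adjusted p under 0.05 in any of the 4 comparisons with limma, and the smallest, 0.0937, was rank 18 with protein against empty. An unadjusted p under 0.05 was found in 82 genes for protein against cellulose (5.14% of all genes tested), 78 for protein against empty (4.66%), 79 for lipid against cellulose (2.78%) and 65 for lipid against empty (2.62%). With DESeq2 on 23 libraries 14 of the 100 genes had an adjusted p under 0.05 for protein against cellulose (0.32% of all genes tested). For protein against empty 7 had it (0.121%). For lipid 0 of the 100 had it against cellulose (0 of all genes tested) and 0 against empty (1 of all genes tested). With edgeR 0 genes of the whole table had it in any of the 4 comparisons. Ranks 1, 2, 3, 6 and 8 had p under 0.01 in all 4 comparisons with limma, and 38 genes had it in none. The shares of all genes tested called in all 4 or in none were not counted.

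Full separation of a pair of groups was rare. Every protein library lay above every cellulose library in 3 of the 100 genes (0.242% of all genes tested) and above every empty library in 8 (0.158%). Every lipid library lay above every cellulose library in 6 (0.0998%) and above every empty library in 6 (0.0946%). In 61 genes at least 6 of the 12 nutrient libraries exceeded all 13 others, and in 12 genes at least 9 did. The choice favoured such separation, and the share over all genes tested was not counted, so nothing is read from these counts.

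The libraries of a treatment were not alike in these genes. The midpoint of a gene's gap was taken as a line, and the genes above it were counted in each library. In protein libraries 34 to 92 of the 100 genes lay above it (median 84.5) and in lipid libraries 64 to 94 (median 75), against 9 to 33 in cellulose (median 22) and 14 to 41 in empty libraries (median 20.5). Protein library 32 was the one nutrient library with under 50 genes above the line. It had the lowest value of the protein group in 54 of the 100 genes, where it was lowest in 17% of all genes tested. Lipid library 21 stood at the other end, with the highest value of its group in 43 genes against 22% of all genes tested.

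These counts rest on libraries that took part in the choice. The 100 genes were therefore chosen again 25 times, each time without 1 library, and that library was then placed by the genes so chosen. Of the 25 libraries, 17 fell on the side of their own treatment, meaning more than 50 of 100 genes above the line for a nutrient and fewer for the others. By treatment these were 4 of 6 protein, 3 of 6 lipid, 6 of 7 cellulose and 4 of 6 empty libraries. The protein libraries had 22 to 83 genes above the line and the lipid libraries 34 to 80, against 19 to 55 in cellulose and 29 to 72 in empty libraries, so that all 4 ranges overlapped. On the other side lay protein libraries 20 (42 genes) and 32 (22), lipid libraries 9 (34), 14 (44) and 28 (38), cellulose library 23 (55) and empty libraries 12 (58) and 24 (72). No chance level was set for these placements, and the genes counted in a library are not independent of each other. The placements are a description, with no test.

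**Figure D3:**
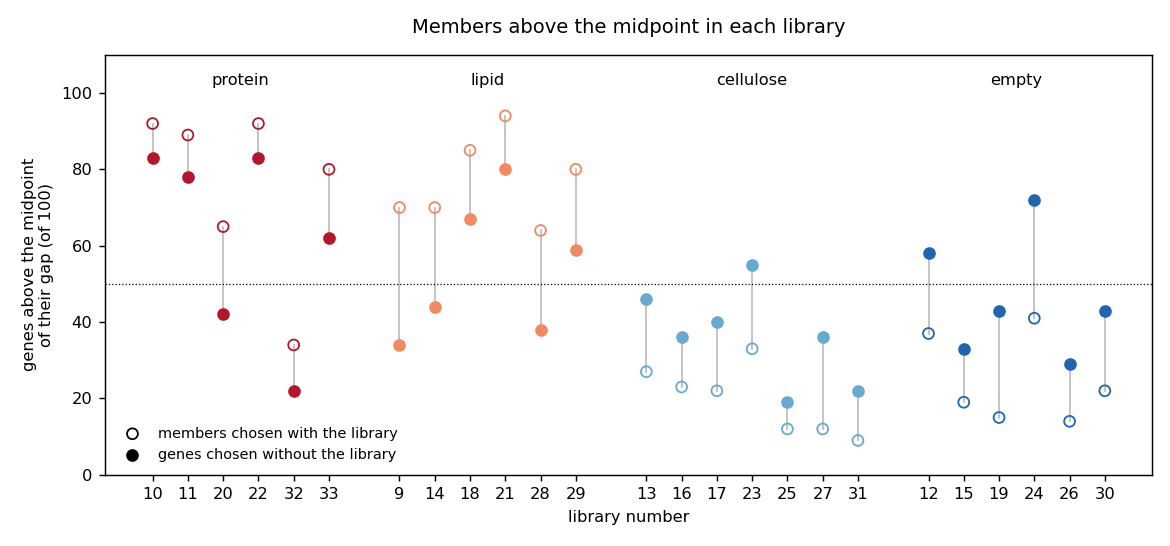
Number of genes, of 100, above the midpoint of their gap in each of the 25 libraries, for genes chosen with the library (open) and without it (filled), with a dotted line at 50. With the library left out of the choice, 17 of 25 libraries stay on the side of their treatment, and protein library 32 lies at 22 and empty library 24 at 72.

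The leading genes stayed in the set in these repeated choices, and many of the others did not. The first 2 stayed close to their rank, while the ranks of later ones moved further. Between 61 and 88 of the 100 genes were chosen again when 1 library was left out, the fewest without lipid library 9. The number of repeated choices that kept a gene was 25 for 31 genes and at least 20 for 57, and the least was 6. Ranks 1 to 14 were all kept 25 times. LABE_00005599-RA ranked 1 or 2 and LABE_00019722-RA 1 to 3 in every choice, while rank 4 fell as low as 23 and rank 14 as low as 57. The 25 choices share most of their libraries, so these counts describe how far the set depends on single libraries.

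Within treatments the deviations of the 100 genes were weakly and more often positively related. Each library's deviation from its treatment mean was taken for every gene, and pairs of genes were correlated over the 25 libraries. The median Pearson correlation was 0.16 over the 4950 pairs among the 100 genes, with 8.85% of pairs above 0.5 and 27.3% below 0. Over all pairs of genes tested the median was 0.00, with 2.72% above 0.5 and 50.2% below 0. The pairs share the same libraries and size factors, and the SD entered the choice. The 100 genes were also all chosen in the same direction on these libraries, while pairs of all genes mix directions. A lean to positive correlations can come from the choice itself, so this is a description. The largest within-group SD was that of protein in 39 genes, of empty in 36, of lipid in 17 and of cellulose in 8. The shares over all genes tested were not counted, so nothing is read from these counts. The median SD with protein was 0.46 in the 100 genes against 0.37 in all genes tested, while the medians with lipid (0.37 against 0.37), cellulose (0.35 against 0.34) and empty (0.42 against 0.42) lay within 0.05 of each other.

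**Figure D4:**
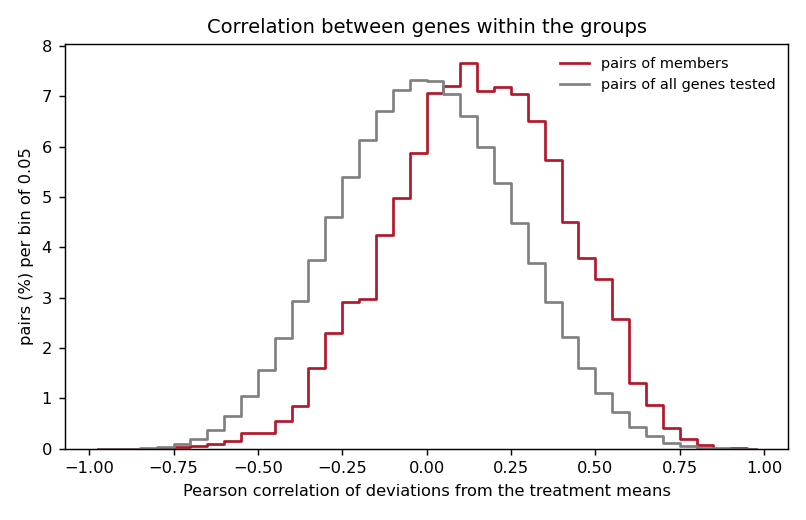
Distribution of the Pearson correlation between genes of their deviations from the treatment means over 25 libraries, as percent of pairs per bin of 0.05, for pairs of the 100 genes (red) and pairs of all genes tested (grey). The red curve lies to the right of the grey one, with medians of 0.16 and 0.00, and the curves overlap over most of their range.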

How the data were processed

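RNA of 25 ballan wrasse foregut samples was sequenced by the study with a stranded mRNA kit, 1 library for each RNA sample. Per the labels and methods, the authors trimmed reads with Trim Galore 0.4.2, aligned them to the wrasse genome with HISAT2, counted them per gene with featureCounts and normalized with DESeq2. The deposited values are a signal, gene counts divided by a size factor, for 20208 genes. In all 25 columns 100% of values were whole multiples of a step within 0.1 read. Reads were recovered in 23 of them. In lipid library 21 and empty library 19 the step lay closer to 1 than the limit set for recovery, and these were left out of count tests. No column was without a sample (0 columns), and no batch was labelled. None of the 20208 identifiers matched the RefSeq gene table.

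Values were taken as log2(value + 1), and the 19033 genes with values above 10 in 5 or more libraries entered the tests. The added 1 shrinks the fold changes of weakly expressed genes. All 4 groups entered 1 limma fit (limma 3.58.1, R 4.3.3) with Benjamini-Hochberg adjustment over all genes tested and with p under 0.01 as the limit for counts. As alternatives, edgeR 4.0.16 (quasi-likelihood test) and DESeq2 1.42.0 were run on the recovered reads of 23 libraries. edgeR called 124 genes at p under 0.01 for protein against lipid and 168 for cellulose against empty. Other pseudocounts, filters, scalings, treatment medians and each library left out were also tried. The script was tested on simulated data. The members and lists were chosen with earlier results of these data known. At most 2 identifiers, those of the highest ratio, are named, and the other genes go by rank or group. P-values set the difference between treatments against the spread between these libraries.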

Additional observations from a re-analysis of the deposited data

Results flagged for a closer look

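Single libraries at a distance from their group were sought in the total level of the 100 genes and in leading genes, over 48 sets of values, and 2 sets held one. Both were of LABE_00019722-RA, the gene of rank 2. Protein library 11 had 590.8 normalized counts and the next protein library 468.7, a distance that was 0.653 of the range of the group, past Dixon's limit of 0.625. Empty library 19 had 169.5 and the next empty library 288.0, a distance of 0.638 of the range. Chance alone flags about 1 set in 20. The gap of this gene was 0.43 to 0.56 when any 1 library was left out.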

How the results depend on the processing

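The number of genes with the pattern, 1564, was 1074 to 1691 under other pseudocounts, filters, scalings and treatment medians, and 1231 (without lipid library 21) to 1782 (without empty library 24) with 1 library left out. Of the 100 genes, 92 to 99 were chosen again under other pseudocounts, other scalings and no filter. The filter at a mean of at least 50 let only 68 of them through, and all 68 were chosen again. With treatment medians in place of means only 39 were. With 1 library left out 61 to 88 were chosen, 61 without lipid library 9 and 65 without empty library 24. Over all genes, protein against lipid gave 85 genes at p under 0.01, 54 at a mean of at least 50 and 66 to 108 with 1 library left out. DESeq2 on 23 libraries gave 184, and limma on the same 23 libraries 108. Cellulose against empty gave 175, 102 at a mean of at least 50 and 126 (without empty library 30) to 315 (without empty library 15). Here DESeq2 gave 262, and limma on the same 23 libraries 181. The choice of genes limits both differences, and 0 of the 100 were called under each setting. The counts of the 100 genes higher with nutrient moved with single libraries, to 26 to 56 for protein against cellulose, 23 to 53 for protein against empty, 8 to 28 for lipid against cellulose and 17 to 29 for lipid against empty. The lowest count for protein against cellulose came without protein library 22 and also without cellulose library 31. For protein against empty it came without protein library 22. Lipid library 21 gave the lowest lipid counts when left out, and protein library 32 the highest protein counts. Without lipid library 21 the share of all genes tested called higher for lipid against cellulose also fell, from 0.499% to 0.269%. Shares were not counted for the other libraries left out, so nothing is read from how these counts moved. The gap of LABE_00005599-RA was 0.79 to 0.98 with 1 library left out and 0.67 with treatment medians, and that of LABE_00019722-RA 0.43 to 0.56 and 0.45. Causes were not tested. No paired analysis was possible because library numbers are unique and pair no samples. Depth limits the 11 genes with a mean under 20.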
